A study of Arabidopsis thaliana with 12 samples.

Results

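The 5 genes described here encode a pair of Calvin cycle enzymes, PRK (AT1G32060, phosphoribulokinase) and SBPASE (AT3G55800, sedoheptulose-bisphosphatase), and 3 plastid redox proteins. The redox genes are NTRC (AT2G41680, NADPH-dependent thioredoxin reductase C), AT3G52960, which encodes a plastid type II peroxiredoxin, and AT2G04700, which encodes the catalytic subunit of ferredoxin-thioredoxin reductase. They were chosen by function, with earlier results of these data known. Each had a probe annotated to it alone (probes 3151, 1517, 1759, 1966 and 3436), and these are 5 of 690 single-gene probes among the 3439 probes measured. Total RNA came from wild-type Arabidopsis thaliana, ecotype C24, grown under light specific for photosystem I (PSI light) or photosystem II (PSII light), with 6 samples per regime. The labels give no tissue, plant age, lamp, light intensity or length of exposure. No untreated or white-light group was analysed here, so each difference is between the 2 regimes and cannot be assigned to one of them. Samples numbered 1 and 2, 3 and 4, and 5 and 6 of a regime deviated from its mean together and were averaged as repeat measurements, which left 3 replicates per regime, called replicates 1, 2 and 3. No label says that replicates came from separate plants, and the p-values therefore cover the spread among these samples alone, part or all of which may be technical.

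The Calvin cycle fixes carbon dioxide in the chloroplast stroma. SBPase removes a phosphate from sedoheptulose bisphosphate on the way to regenerating the carbon dioxide acceptor, and phosphoribulokinase makes that acceptor, ribulose bisphosphate, in the last step. Both enzymes are inactive in the dark and are switched on in the light when thioredoxins reduce disulfide bonds between their cysteines. The electrons come from photosystem I through ferredoxin and ferredoxin-thioredoxin reductase, an iron-sulfur enzyme that passes them to thioredoxins. NTRC joins a reductase and a thioredoxin in a single protein and draws on NADPH instead, and peroxiredoxins use thiol electrons to remove peroxides. Light that favours photosystem II reduces the plastoquinone pool between the photosystems, and light that favours photosystem I oxidises it. Arrays measure transcripts, so the values below carry no information on the redox state of the proteins.

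None of the 5 genes passed the test between the light regimes (0 of 5, limma with Benjamini-Hochberg adjustment over all probes, threshold 0.05), where 3.14% of all probes passed. At an unadjusted p under 0.05 limma counted 0 of the 5 as well, against 22.3% of all probes. This unadjusted count depended on the processing: with the replicate block limma counted 1 of 5 (SBPASE), beside 28.4% of all probes. Limma counted PRK and SBPASE, 2 of 5, on deposited values, with repeats as a random block, once the dimmest 25% were removed and under median centring, beside 21.2% to 25.6% of the probes tested. It also counted these 2 without PSII-light replicate 1, beside 17.7% of all probes. With all 6 samples as separate it counted 3 of 5, AT2G04700 being the third, beside 38.8% of all probes. The replicates of the 2 regimes overlapped for each of the 5 genes after normalization, while 27.5% of all probes showed no overlap. The fitted differences were positive for PRK, SBPASE and AT3G52960, negative for AT2G04700 and close to 0 for NTRC, whose sign turned with median centring. They had a median log2 difference of 0.11 over the 5 genes and 0.01 over all probes. A log2 difference here is PSII light minus PSI light on quantile-normalized log2(intensity + 0.193), a scale that understates changes of dim probes. The genes' mean intensities were 3.37 to 6.26 times this pseudocount. In total RNA, fewer cells of a type and less RNA per cell cannot be told apart.

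**Figure D1:**
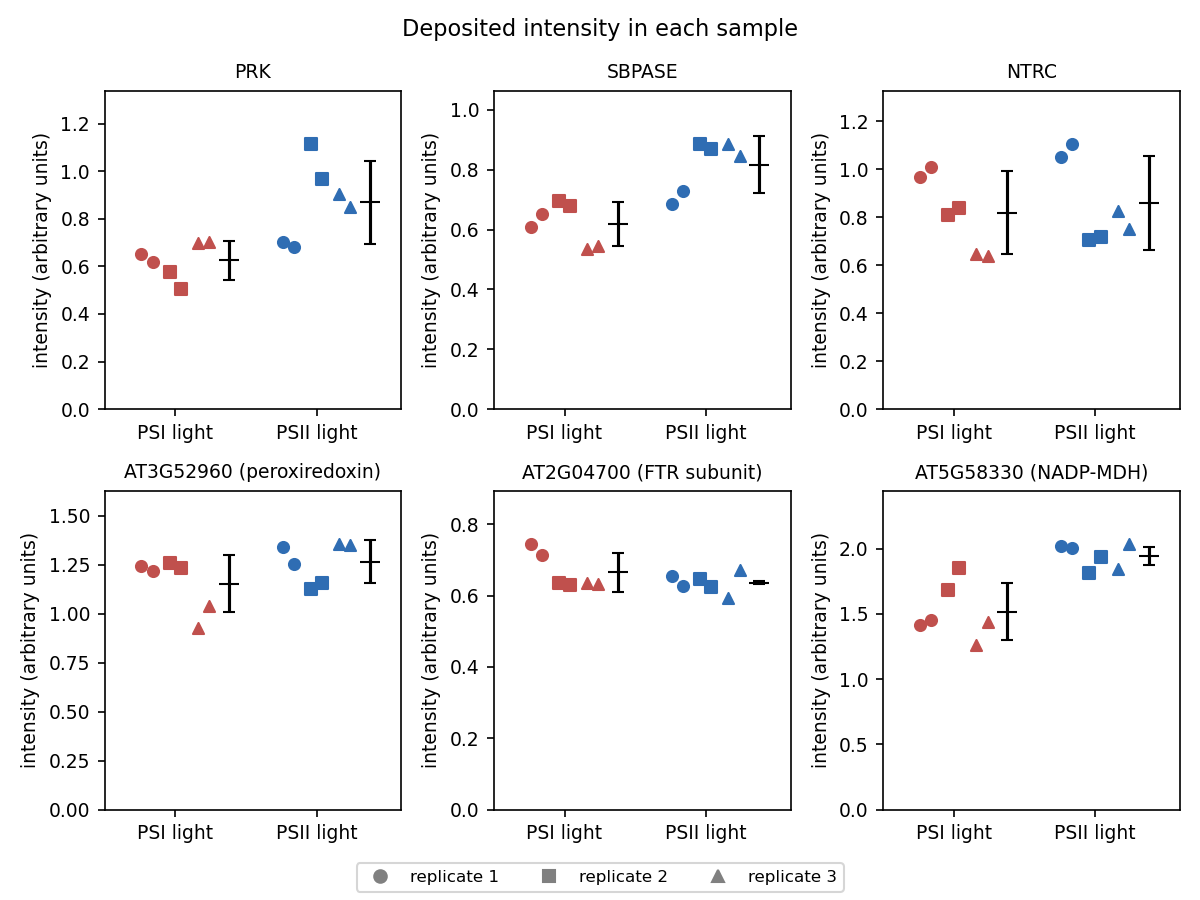
Deposited intensity (arbitrary units, y axis from 0) of the 5 genes and of AT5G58330 (NADP-dependent malate dehydrogenase, NADP-MDH) in all 12 samples, with 6 samples per light regime (x axis), the marker shape giving the replicate and black bars the mean ± SD of the 3 replicates. PRK ranged from 0.507 to 0.704 in PSI light and from 0.682 to 1.12 in PSII light, while NTRC was highest in replicate 1 of both regimes.

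PRK had the largest fitted difference among the 5, although SBPASE exceeded it without PSI-light replicate 2 (0.31 against 0.23) or without PSII-light replicate 2 (0.19 against 0.18). Its deposited intensity was 0.635, 0.541 and 0.701 in PSI-light replicates 1, 2 and 3 and 0.691, 1.04 and 0.876 in PSII-light replicates 1, 2 and 3. PSII-light replicates 2 and 3 lay above every PSI-light replicate, while PSII-light replicate 1 lay below PSI-light replicate 3, so the groups overlapped. The PSI-light mean was 0.625 ± 0.0805 and the PSII-light mean 0.869 ± 0.175 (SD, n = 3), a ratio of 1.39 on the deposited scale. The log2 difference after normalization was 0.31 ± 0.16 (SE; limma, Benjamini-Hochberg adjusted p = 0.320), with a 95% interval from -0.08 to 0.70. In folds of intensity plus pseudocount this interval ran from 0.944 to 1.63. The exact two-sided permutation test over the 6 replicates gave p = 0.2, where 0.1 is the smallest p that 3 against 3 allows. It exchanged replicates without regard to their numbers, so it leaves out any pairing.

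Most of the PRK difference came from 1 pair of replicates. Replicates with the same number in both regimes deviated together across all probes, with correlations of 0.323, 0.366 and 0.360. The genes were therefore also compared by number, although for PRK itself blocking on the number left the SE at 0.16. The PRK log2 difference was 0.02 in replicate 1, 0.75 in replicate 2 and 0.16 in replicate 3. In replicate 2 PRK had both its lowest PSI-light value and its highest PSII-light value. Repeat measurements of PRK differed by a mean of only 0.08 on the log2 scale, and its residual SD was 2.75 times this gap. The gap is between single samples and the SD among averages, so such ratios, here and below, do not set like against like. Without PSII-light replicate 2 the log2 difference was 0.18, and without PSII-light replicate 1 it was 0.46 (adjusted p = 0.578 and 0.210, limma with Benjamini-Hochberg). The residual SD of PRK, 0.233 on the log2 scale, exceeded that of 94.4% of probes, whose median was 0.0992.

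Like PRK and AT5G58330, SBPASE was higher in PSII light in each of the 3 replicate pairs, without passing the test. How many of all probes did the same was not counted. This order of pairs holds at least for the 14.7% whose normalized PSII-light replicates all exceeded every PSI-light replicate. The deposited intensity of SBPASE was 0.630, 0.686 and 0.540 in PSI-light replicates 1, 2 and 3 and 0.707, 0.878 and 0.865 in PSII-light replicates 1, 2 and 3. As deposited, every PSII-light replicate exceeded every PSI-light replicate, a pattern shown by 20.9% of all probes. After quantile normalization the groups overlapped, since PSII-light replicate 1 then lay below PSI-light replicate 2. The PSI-light and PSII-light means were 0.619 ± 0.0737 and 0.817 ± 0.0949 (SD, n = 3), a ratio of 1.32 on the deposited scale. The log2 difference after normalization was 0.25 ± 0.11 (SE; limma, Benjamini-Hochberg adjusted p = 0.237), with a 95% interval from -0.01 to 0.52. The exact two-sided permutation test, again without pairing, gave p = 0.2. By replicate number the log2 differences were 0.06, 0.28 and 0.43.

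The lowest SBPASE values were those of PSI-light replicate 3, whose samples also had the lowest summed intensities of the 12 (3673 and 3643, the highest of the 12 being 3768). Their median intensities of 0.605 and 0.596 were the lowest too. The part of this in the SBPASE difference was not tested. The log2 difference by replicate number in replicate 3 was 0.53 before quantile normalization and 0.43 after it, with the same pseudocount. Without PSI-light replicate 3 the SBPASE log2 difference was 0.20 (limma, Benjamini-Hochberg adjusted p = 0.482). It was 0.19 without PSII-light replicate 2 and 0.22 without PSII-light replicate 3. Leaving out each replicate in turn gave 0.19 to 0.35. PRK and SBPASE shared their smallest differences, both in replicate 1, and parted in the largest, which was in replicate 2 for PRK and in replicate 3 for SBPASE.

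**Figure D2:**
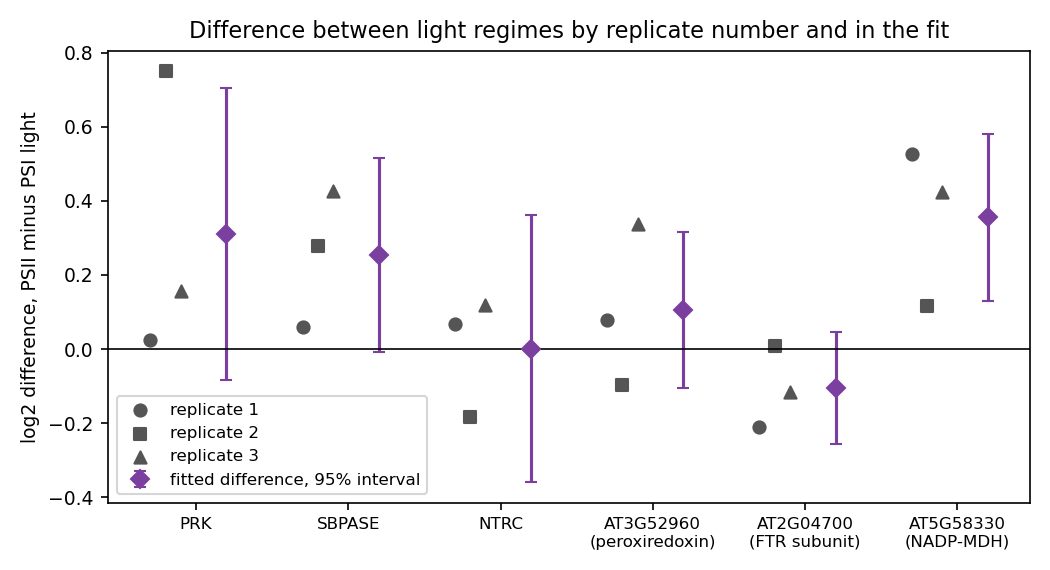
Log2 difference of normalized intensity, PSII minus PSI light (y axis), for the 5 genes and AT5G58330 (x axis), with grey markers for the 3 replicate numbers and purple diamonds for the fitted difference with its 95% interval. The intervals of the 5 genes span 0, and the PRK markers spread from 0.02 to 0.75.

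The NTRC means of the 2 regimes were close, while its replicates varied. Its deposited intensity was 0.990, 0.823 and 0.643 in PSI-light replicates 1, 2 and 3 and 1.08, 0.711 and 0.788 in PSII-light replicates 1, 2 and 3. Replicate 1 was the highest of both regimes, and the ranges of the 2 regimes shared the span from 0.711 to 0.990. The PSI-light and PSII-light means were 0.819 ± 0.174 and 0.860 ± 0.195 (SD, n = 3). The log2 difference after normalization was 0.00056 ± 0.15 (SE; limma, Benjamini-Hochberg adjusted p = 1), with a 95% interval from -0.36 to 0.36. This interval holds folds from 0.779 to 1.28, so a p this high does not show that the regimes were alike. The differences by replicate number were 0.07, -0.18 and 0.12, of both signs. The residual SD of 0.211 was above that of 92.6% of probes and was 5.06 times the mean gap of 0.04 between repeat measurements. Blocking on replicate number gave the NTRC difference an SE of 0.08 in place of 0.15. The next probe number, 1760, was brighter (mean intensity 1.33) and had a log2 difference of 0.66 (limma, Benjamini-Hochberg adjusted p = 0.0732). Of the other neighbouring probes, those on either side of AT3G52960 had log2 differences of 0.17 and 0.17 and those of AT2G04700 -0.22 and -0.09, of the same sign as the gene between them. The measured neighbours of PRK (-0.09) and SBPASE (-0.02) had the opposite sign. None of these 7 neighbours passed the test by limma with Benjamini-Hochberg, where 3.14% of all probes passed.

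The peroxiredoxin gene AT3G52960 was at 1.23, 1.24 and 0.985 in PSI-light replicates 1, 2 and 3 and at 1.30, 1.14 and 1.35 in PSII-light replicates 1, 2 and 3. PSI-light replicate 3 stood lowest, and PSII-light replicate 2 lay below PSI-light replicates 1 and 2, so the groups overlapped. The PSI-light and PSII-light means were 1.15 ± 0.146 and 1.27 ± 0.110 (SD, n = 3). The log2 difference after normalization was 0.11 ± 0.09 (SE; limma, Benjamini-Hochberg adjusted p = 0.518), with a 95% interval from -0.10 to 0.32. By replicate number it was 0.08, -0.10 and 0.34. Without PSI-light replicate 3, the replicate with the lowest summed intensities, it was 0.04 (limma, Benjamini-Hochberg adjusted p = 0.873). It was 0.06 without PSII-light replicate 3 (adjusted p = 0.782) and 0.06 with median centring (adjusted p = 0.757), by limma with Benjamini-Hochberg.

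AT2G04700, the reductase subunit that hands electrons from ferredoxin to thioredoxins, was the steadiest of the 5. Its deposited intensity was 0.729, 0.633 and 0.635 in PSI-light replicates 1, 2 and 3 and 0.641, 0.636 and 0.632 in PSII-light replicates 1, 2 and 3. On this deposited scale PSI-light replicate 1 stood above the rest, and the other 5 replicates lay within a narrow band. The PSI-light and PSII-light means were 0.666 ± 0.0552 and 0.636 ± 0.00492 (SD, n = 3). The small SD in PSII light is one of averages, since PSII-light samples 5 and 6 were at 0.592 and 0.671. The log2 difference after normalization was -0.11 ± 0.06 (SE; limma, Benjamini-Hochberg adjusted p = 0.376), with a 95% interval from -0.26 to 0.05. On deposited values it was -0.05, and without PSI-light replicate 1 it was -0.07 (adjusted p = 0.697 and 0.681, limma with Benjamini-Hochberg). The normalized differences by replicate number were -0.21, 0.01 and -0.12. In replicate 3 the log2 difference was -0.007 before quantile normalization. The residual SD of 0.0568 lay at the 16.9th percentile of all probes and was 1.03 times the mean gap between repeat measurements. That ratio sets an SD of averages against a gap of single samples, so it does not equate replicate spread with measurement noise.

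**Figure D3:**
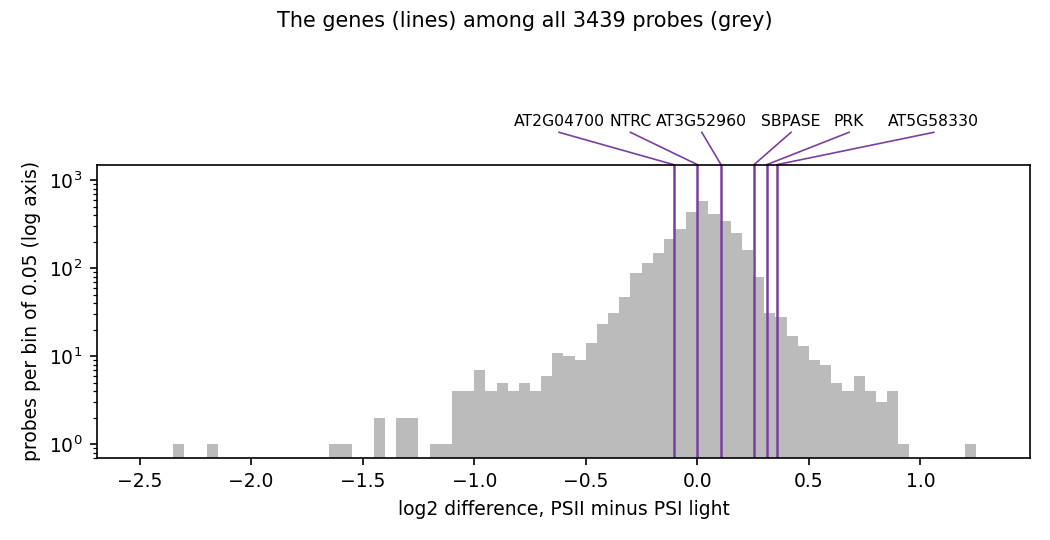
Histogram of the log2 differences, PSII minus PSI light (x axis), of all 3439 probes in bins of 0.05 (y axis, number of probes, log scale), with vertical lines at the 5 genes and AT5G58330. The lines lie between -0.11 and 0.36, those of PRK, SBPASE and AT5G58330 on the upper slope of the distribution and the other 3 near its centre.

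Set against all probes, the size of the PRK difference exceeded that of 91.2% of probes and that of SBPASE 86.0%, while AT3G52960 and AT2G04700 lay near the middle (52.1% and 51.7%) and NTRC near the bottom (3.29%). The spread of each gene set what could have been called. At its own SE, PRK would have needed a log2 difference of 0.88 to reach the largest unadjusted p among called probes, 0.00153. The same calculation gave 0.80 for NTRC, 0.59 for SBPASE, 0.47 for AT3G52960 and 0.34 for AT2G04700. The 5 spots were of medium to high brightness, between the 49.8th and the 84.2nd percentile of mean intensity, and none of their values was at 0. Brightness also varies with the probe itself, so these percentiles rank spots and not transcript levels.

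The rest of both pathways was thinly covered. Of 25 Calvin cycle genes listed, PRK and SBPASE alone had a probe of their own, 1 further gene had only probes shared with other genes, and 22 had no probe in the annotation used here. Of 37 plastid thiol redox genes listed, 4 had their own probe, 6 had only shared probes and 27 had none in that annotation. Neither list held a called gene in either direction (0 of 2 and 0 of 4, where limma with Benjamini-Hochberg called 0.756% of all probes as higher and 2.38% as lower). At an unadjusted p under 0.05 limma counted 1 of these 6 genes, AT5G58330, beside 22.3% of all probes. With SBPASE the count was 2 under the replicate block (28.4% of all probes), with the running median removed (24.3%) or without PSI-light replicate 2 (22.9%). With PRK as well it was 3 on deposited values (23.8% of all probes), with median centring (21.2%) or without PSII-light replicate 1 (17.7%). The count was also 3 with repeats as a random block (25.6%) or without the dimmest 25% (25.4% of the probes kept). With AT2G04700 added it was 4 with all 6 samples as separate, beside 38.8% of all probes. The median log2 difference was 0.28 over the 2 Calvin cycle genes and 0.05 over the 4 redox genes.

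AT5G58330, the gene of the redox list beside NTRC, AT3G52960 and AT2G04700, encodes NADP-dependent malate dehydrogenase. This stromal enzyme is itself switched on by thioredoxin and exports surplus reducing power as malate. Its deposited intensity was 1.43, 1.77 and 1.35 in PSI-light replicates 1, 2 and 3 and 2.01, 1.87 and 1.94 in PSII-light replicates 1, 2 and 3. Every PSII-light replicate exceeded every PSI-light replicate, both as deposited and after normalization, where 14.7% of all probes showed the same order. The log2 difference was 0.36 ± 0.09 (SE; limma, Benjamini-Hochberg adjusted p = 0.102), with a 95% interval from 0.13 to 0.58, and its unadjusted p from limma was 0.00821. By limma with Benjamini-Hochberg it passed without PSI-light replicate 2, its highest PSI-light value (0.45, adjusted p = 0.0293). It also passed with all 6 samples and repeats as a random block (0.36, adjusted p = 0.0256) or as separate samples (adjusted p = 0.00250). Separate samples count repeat measurements as independent. These settings called 140, 365 and 916 of all probes, against 108 in the reported fit. In 12 of the 15 alternatives the gene stayed short of the threshold, with adjusted p up to 0.276.

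**Figure D4:**
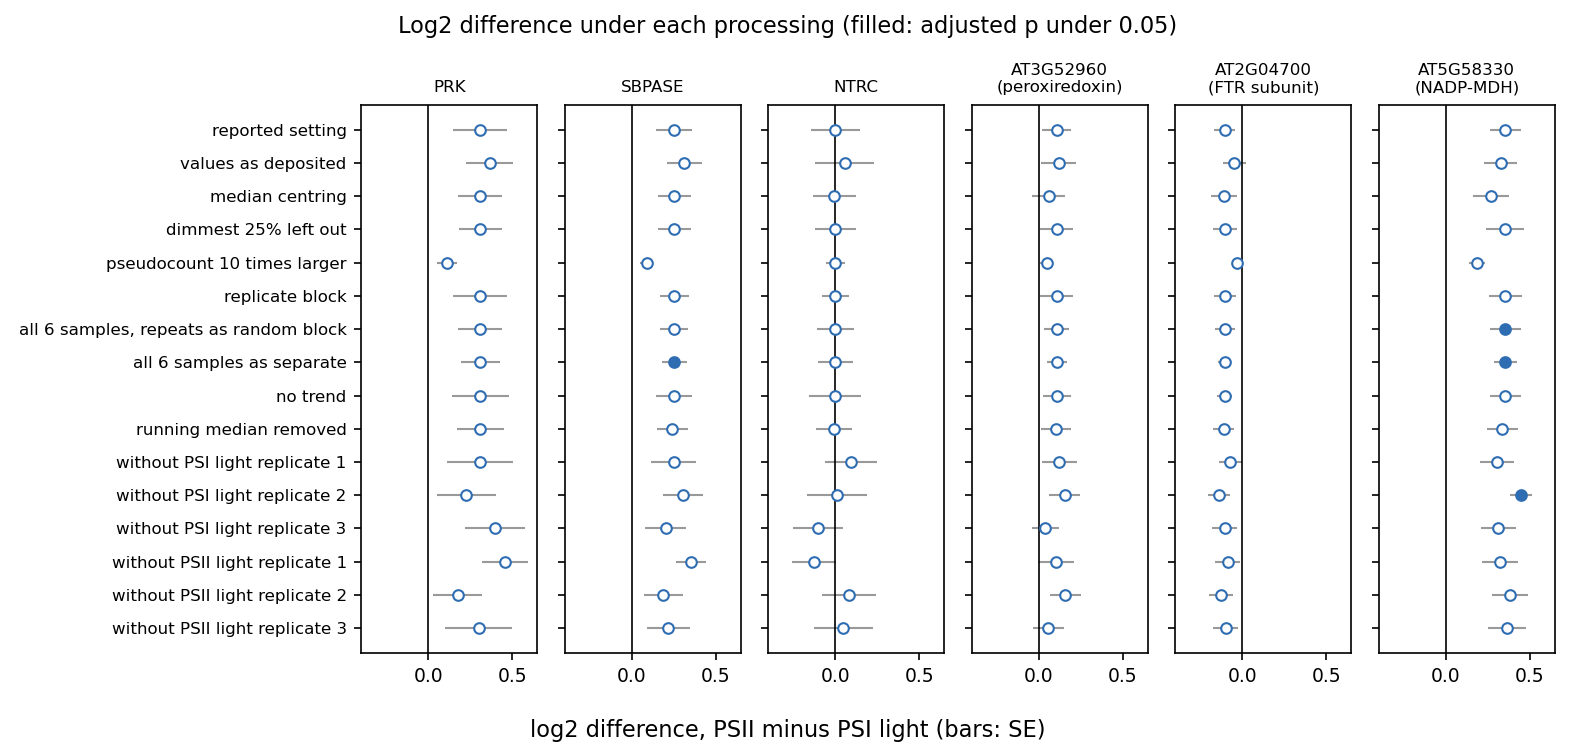
Log2 difference, PSII minus PSI light (x axis), of the 5 genes and AT5G58330 under the reported setting and 15 alternatives (y axis), with bars for the SE and filled points where the adjusted p was under 0.05. SBPASE has a filled point with all 6 samples taken as separate, AT5G58330 has 3 filled points, and the other 4 genes have none.

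For each gene the 3 single-gene probes most like it were taken by Pearson correlation of normalized log2 intensity over the 12 samples, among 659 candidates. The 12 samples hold 6 replicates measured in duplicate and 2 light regimes, so these values describe likeness only. PRK was most like AT2G40980 (r = 0.912), AT3G01060 (0.881) and AT2G19280 (0.864). SBPASE was most like TPP2 (AT4G20850, tripeptidyl peptidase II; r = 0.929), AT3G56290 (0.925) and AT5G52810 (0.923). NTRC was most like AT4G24910 (r = 0.910), AT2G39360 (0.857) and AT2G20920 (0.854). AT3G52960 was most like GH9B12 (r = 0.867), AT4G31530 (0.822) and AT5G19050 (0.809). AT2G04700 was most like AT4G27390 (r = 0.924), AT1G21660 (0.895) and AT1G44830 (0.845). None of these 15 genes passed the test between the regimes by limma with Benjamini-Hochberg, where 3.14% of all probes passed. The lowest adjusted p among them was 0.0839, for AT1G44830, which had a log2 difference of -0.40.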

How the data were processed

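Per the values, the deposited table holds linear intensities in arbitrary units, and the authors' background correction and normalization are not stated in the labels. Sums over a sample's probes ran from 3643 to 3768, and precision is limited by the number of arrays. A pseudocount of 0.193 (5th percentile of values above 0) was added before taking log2, and samples were quantile normalized. Repeat measurements, inferred from correlations of 0.468 to 0.693 between deviations from the group mean, were averaged. Light regimes were compared by limma 3.58.1 under R 4.3.3 (lmFit, then eBayes with an intensity trend; two-sided). All 3439 probes entered the fit, with no filter and no block, and p-values were adjusted by Benjamini-Hochberg. The replicate numbers pair the samples, judged from the shared numbers in the labels and correlations of 0.323, 0.366 and 0.360 between same-numbered replicates. The fit was tested on simulated data.

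Gene names came from a platform annotation of 2016, and 690 of 692 single-gene probes were found in the TAIR10.1 table through their Entrez identifiers. No coordinates are given here. The genes named are the 5 chosen genes, list genes with a probe of their own and the 3 single-gene probes most like each chosen gene. Genes and lists were chosen with earlier results of these data known. Alternative settings changed the scaling (deposited values or median centring), the filter (without the dimmest 25%), the pseudocount (1.93) or the variance model (no trend). Others added the replicate block, used all 6 samples with or without a random block for repeats, removed a running median over 101 probe numbers, left out each replicate, or used an exact permutation test. Figures were drawn with matplotlib 3.10.9.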

Additional observations from a re-analysis of the deposited data

How the results depend on the processing

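Under a replicate block the log2 differences of the 5 genes were those of the unblocked fit and no call changed. Blocked adjusted p-values from limma with Benjamini-Hochberg were 0.285 for PRK, 0.164 for SBPASE, 1 for NTRC, 0.531 for AT3G52960 and 0.349 for AT2G04700. PRK, AT3G52960 and AT2G04700 kept their direction and stayed short of the threshold under all 15 alternative fits. SBPASE kept its direction and passed in 1 of the 15, with all 6 samples taken as separate (log2 difference 0.25, adjusted p = 0.0249, limma with Benjamini-Hochberg), which counts repeat measurements as independent. NTRC, at 0.00056, turned to -0.0049 with median centring and -0.0068 with the running median removed, and its range on leaving out 1 replicate was -0.13 to 0.094, with -0.10 without PSI-light replicate 3 and -0.13 without PSII-light replicate 1. A pseudocount of 1.93 compressed the log2 differences of PRK to 0.11, SBPASE to 0.09 and AT5G58330 to 0.18 by construction.

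The number of called probes was 108. It was 228 with median centring, 235 without the dimmest 25%, 365 with repeats as a random block, 916 with all 6 samples as separate and 223 with the running median removed. Leaving out 1 replicate gave 20 to 140. Why the count moved between settings was not tested. The alternatives for AT5G58330 were chosen after seeing the data.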
